A study of Mus musculus with 24 samples.

Results

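The 10 genes Cdkn1a, Mdm2, Ccng1, Trp53inp1, Phlda3, Eda2r, Gdf15, Bax, Bbc3 and Zmat3, targets of the transcription factor p53, were followed in the lungs and retinas of newborn mice with and without hyperoxia. They were chosen by name, as well-known direct targets of p53, with earlier results of these data known. All 10 were among the 36109 genes listed for the lung and the 36595 listed for the retina. The lung test took in all 10 and the retina test 9, since Eda2r lay under the limit on low counts there. RNA was sequenced from 24 tissue samples, 3 mice in each of 4 groups per tissue. WT-RA and WT-O2 were wild-type mice kept in room air and in hyperoxia, and KO-RA and KO-O2 were the corresponding GSDMD-KO mice. All mice were C57/B6. GSDMD-KO mice were homozygous for a CRISPR/Cas9 allele that lacks 38 bp in exon 5 of Gsdmd, the gene of the pore-forming protein gasdermin D, in every cell, and WT mice were their littermates. For the lung, pups breathed 21% or 85% O2 from postnatal day 1 to 14, a model of bronchopulmonary dysplasia, and lungs were taken on day 15. For the retina, pups breathed 75% O2 from day 7 to 12 and then room air, a model of retinopathy of prematurity, or room air from day 1 to 17, and tissue was taken on day 18. The retinas of the O2 groups had thus spent the last days in room air, while the lungs were taken a day after the end of the exposure.

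The protein p53 is held at a low level by the ubiquitin ligase Mdm2. After DNA damage or other stress p53 is stabilised, binds a pair of short DNA motifs near its targets and raises their transcription. Among the targets, Cdkn1a encodes p21, which blocks cyclin-dependent kinases and stops the cell cycle. Ccng1 encodes cyclin G1, and Mdm2 closes a negative feedback loop on p53. Bax and Bbc3 (also called Puma) are pro-apoptotic proteins of the BCL-2 family, and Trp53inp1 encodes a p53-induced nuclear protein with a part in cell death and autophagy. Phlda3 is a pleckstrin homology domain protein that inhibits AKT, Eda2r is a receptor of the tumour necrosis factor receptor family, Gdf15 is a secreted cytokine of the TGF-beta superfamily, and Zmat3 is a zinc finger RNA-binding protein. High oxygen damages DNA through reactive oxygen species, and induction of p21 in lungs kept in high oxygen is long known.

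The genes lie on 9 chromosomes. In the GENCODE annotation of mouse build GRCm38, Cdkn1a spans chr17:29090976-29100727 on the + strand, Ccng1 chr11:40748552-40755311 on the - strand, Mdm2 chr10:117688875-117710758 on the - strand, Bax chr7:45461697-45466898 on the - strand and Bbc3 chr7:16308393-16318205 on the + strand. Trp53inp1 spans chr4:11156431-11174379 (+), Phlda3 chr1:135766119-135769136 (+), Eda2r chrX:97333840-97377216 (-), Gdf15 chr8:70629393-70632456 (-) and Zmat3 chr3:32334792-32366014 (-). The study's methods and notes name different builds for the counts, and the counts here carry no coordinates, so positions serve only to place the genes.

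Promoter windows of 300 bases (250 before to 50 after a RefSeq start, GRCm38.p6) were at hand for 8 of the 10 genes, all but Trp53inp1 and Zmat3, in 12 windows. They were searched for the p53 decamer, the 10-base unit of the p53 motif, which reads the same on both strands. An exact decamer stood in windows of 4 of the 8 genes (50%), Cdkn1a, Ccng1, Mdm2 and Bax, against 9.55% of the 27025 genes with a window. Bbc3, Phlda3, Eda2r and Gdf15 had none in these windows. A full motif, 2 decamers side by side with at most 1 of 20 bases off, stood in 29 of 32851 windows (0.0883%), and the windows of Cdkn1a and Ccng1 were among them. The 4 stretches are shown because they hold an exact decamer, in the cell-cycle genes Cdkn1a and Ccng1, the feedback gene Mdm2 and the cell death gene Bax. Each runs 5′ to 3′ from base -250 to base -26 before its start. Capitals mark each exact decamer and, in Cdkn1a and Ccng1, the full motif with 1 base off.
Cdkn1a, chr17:29090729-29090953 (+ strand): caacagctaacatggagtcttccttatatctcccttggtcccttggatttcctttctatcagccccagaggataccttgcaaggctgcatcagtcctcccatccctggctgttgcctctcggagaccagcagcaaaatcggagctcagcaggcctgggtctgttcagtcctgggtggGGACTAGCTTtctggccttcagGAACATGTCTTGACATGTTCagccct
Ccng1, chr11:40755312-40755536 (- strand): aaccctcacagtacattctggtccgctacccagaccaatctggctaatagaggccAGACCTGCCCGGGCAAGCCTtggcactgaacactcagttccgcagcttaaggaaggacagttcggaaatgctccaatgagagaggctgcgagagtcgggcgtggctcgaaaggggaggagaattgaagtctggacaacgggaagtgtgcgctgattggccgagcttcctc
Mdm2, chr10:117710784-117711008 (- strand): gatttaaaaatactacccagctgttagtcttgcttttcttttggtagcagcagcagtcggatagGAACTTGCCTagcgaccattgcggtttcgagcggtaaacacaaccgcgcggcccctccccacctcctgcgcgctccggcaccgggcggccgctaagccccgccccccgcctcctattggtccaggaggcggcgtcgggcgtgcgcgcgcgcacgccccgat
Bax, chr7:45466924-45467148 (- strand): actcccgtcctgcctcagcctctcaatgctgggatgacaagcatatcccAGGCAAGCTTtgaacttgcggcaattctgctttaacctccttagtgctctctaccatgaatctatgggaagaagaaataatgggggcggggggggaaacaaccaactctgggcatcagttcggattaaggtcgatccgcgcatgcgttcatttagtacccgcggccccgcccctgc
In Cdkn1a the full motif begins 51 bases before the upstream one of 2 RefSeq starts, which lies 2790 bases before the other, and a further exact decamer begins at -73. The full motif of Ccng1 begins at -195, and the single decamers of Mdm2 and Bax begin at -186 and -201. These are matches of letters in a fixed window, which say nothing on binding in these tissues.

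The libraries held 24863257 to 29604254 counts in all. Gsdmd, in CPM (counts scaled by library size, as in all levels given here), was 40.6 to 42.3 in WT-RA lungs, 32.1 to 36.4 in WT-O2, 22.6 to 24.8 in KO-RA and 11.7 to 16.3 in KO-O2. In the retina it was 4.08, 0.400 and 2.72 in WT-RA, 5.69, 2.90 and 3.85 in WT-O2, 0.966, 0.790 and 0.647 in KO-RA, and 1.09, 1.45 and 2.95 in KO-O2. The library labelled WT-RA replicate 2 of the retina thus lay below all 6 KO libraries, against its label. KO-O2 replicate 3, at 2.95 CPM, lay above WT-RA replicates 2 and 3 and WT-O2 replicate 2. A transcript can persist with a short deletion, so Gsdmd RNA is not a full check of genotype. Summed markers of lung epithelium (4 genes) ran from 19420 to 33700 CPM in the lungs and those of retina (4 genes) from 34380 to 53230 CPM in the retinas. Lens markers (Cryaa, Crygd, Bfsp1, Lim2) summed to 12510 and 38490 CPM in retina WT-RA replicates 2 and 3 and to 20780 CPM in KO-RA replicate 3, against 1.51 to 149 CPM in the other 9 retinas. Retina hyperoxia calls that were lost without these 3 libraries are therefore named below, in a fit with 1 WT-RA sample that is assumed to vary like the other groups. Liver markers reached 133 CPM in lung KO-O2 replicate 1 and at most 2.69 CPM in the other lungs. Summed Y-linked markers exceeded 50 CPM in 0, 1, 2 and 3 lungs and in 3, 1, 3 and 1 retinas of the groups WT-RA, WT-O2, KO-RA and KO-O2, so the sexes were not balanced over the groups.

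In lungs of WT mice, hyperoxia raised all 10 p53 target genes. Their summed level was 393 to 504 CPM in the 6 room-air lungs and 1822 to 2176 CPM in the 6 hyperoxic lungs. Gdf15 (51.6-fold), Eda2r (29.4-fold) and Cdkn1a (13.1-fold) rose most, and Bbc3 (1.30-fold) and Trp53inp1 (1.57-fold) least. All 10 passed an adjusted p of 0.1 (quasi-likelihood test of edgeR, Benjamini-Hochberg adjustment over all genes), against 24.5% of the 16819 genes tested that were called higher (49.2% in either direction). Of the 10 genes, 8 also passed the study's limit of a 2-fold change, against 5.04% of all genes. In 9 of 10 every hyperoxic lung lay above every room-air lung, which held for 24.6% of all genes. The median log2 fold change of the 10 was 1.85, and that of all genes -0.01. In bulk tissue fewer cells of a type and less RNA per cell cannot be told apart.

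**Figure D1:**
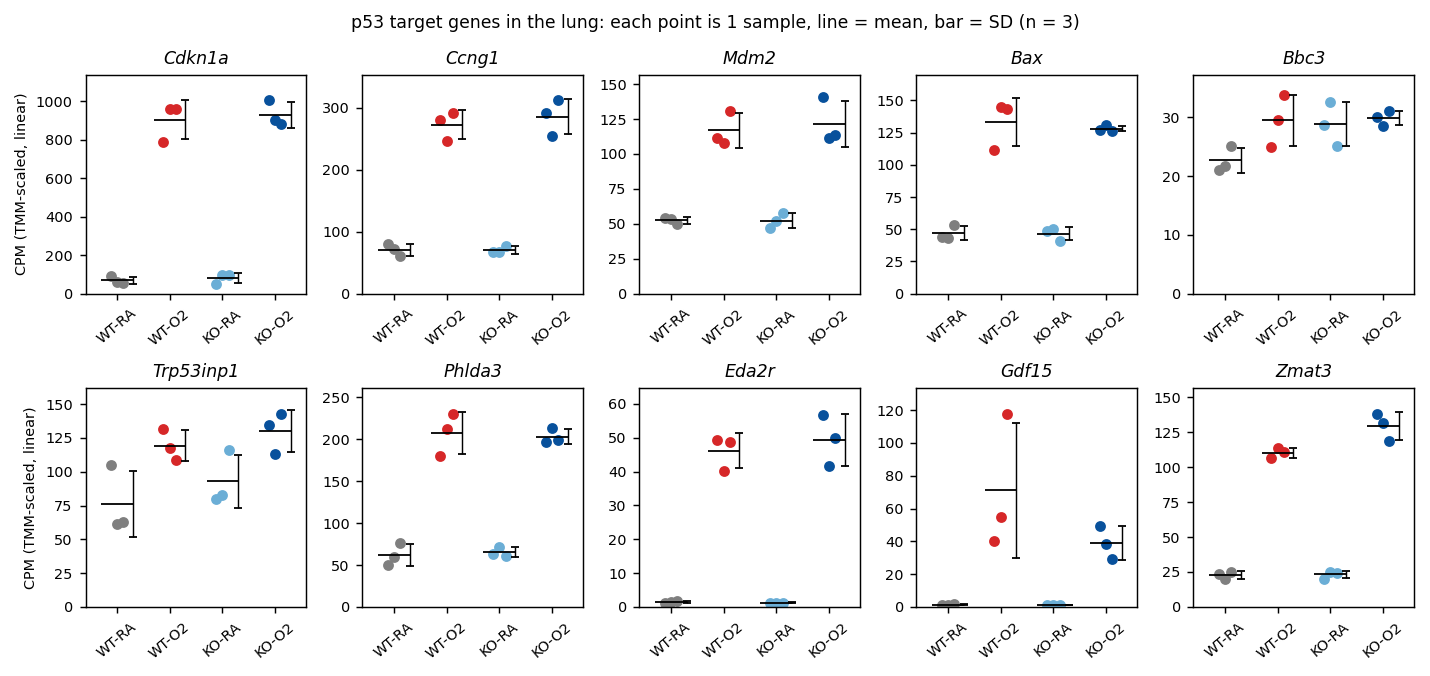
Levels of the 10 p53 target genes in the lung in CPM on a linear axis, by group. Each point is 1 lung, the line the mean and the bar the SD (n = 3). For Cdkn1a, for example, the 6 room-air lungs sit between 52.7 and 99.7 CPM and the 6 hyperoxic lungs between 787 and 1007 CPM.

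In GSDMD-KO lungs hyperoxia raised 9 of the 10 genes, all but Bbc3, against 23.3% of all genes called higher. The 2-fold limit was passed by 8, against 4.57% of all genes, and in 8 the hyperoxic lungs all lay above the room-air lungs, against 26.3% of all genes. The share of genes called in either direction was 46.7%, and the median log2 fold change was 1.83 against -0.01 over all genes. The 6 hyperoxic lungs of both genotypes were similar in summed level, 1822, 2030 and 2176 CPM in WT-O2 and 2171, 1965 and 2004 CPM in KO-O2.

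Of the cell-cycle genes, Cdkn1a was 91.3, 58.6 and 57.0 CPM in WT-RA lungs and 787, 963 and 962 CPM in WT-O2. It was 52.7, 95.3 and 99.7 CPM in KO-RA and 1007, 902 and 882 CPM in KO-O2. Every hyperoxic lung lay far above the highest room-air lung. Cdkn1a rose by 3.71 ± 0.26 on the log2 scale (SE; adjusted p = 8.19e-07) in WT and by 3.49 ± 0.25 (adjusted p = 1.45e-06) in GSDMD-KO. Ccng1 was 79.3, 72.0 and 60.4 CPM in WT-RA and 280, 246 and 291 CPM in WT-O2. In GSDMD-KO it was 66.7, 67.2 and 77.3 CPM in room air and 291, 254 and 311 CPM in hyperoxia. The groups of each genotype were far apart and the spread within each was small. Ccng1 rose by 1.95 ± 0.11 (adjusted p = 1.73e-08) and 2.02 ± 0.11 (adjusted p = 1.64e-08).

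Mdm2, the feedback inhibitor, had 54.4, 53.4 and 49.8 CPM in WT-RA and 111, 108 and 131 CPM in WT-O2. In KO-RA it had 46.7, 52.0 and 57.7 CPM and in KO-O2 141, 111 and 113 CPM. The lowest of the 6 hyperoxic lungs lay well above the highest of the 6 room-air lungs. The rise was 1.15 ± 0.11 (adjusted p = 1.45e-06) in WT and 1.22 ± 0.11 (adjusted p = 9.69e-07) in GSDMD-KO.

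Of the genes of cell death, Bax rose in both genotypes and Bbc3 slightly and in WT alone. Bax was 44.0, 43.6 and 53.7 CPM in WT-RA and 111, 145 and 143 CPM in WT-O2. It was 48.9, 49.9 and 40.9 CPM in KO-RA and 127, 131 and 127 CPM in KO-O2. The groups did not overlap, with log2 changes of 1.50 ± 0.11 (adjusted p = 1.82e-07) and 1.46 ± 0.11 (adjusted p = 3.12e-07). Bbc3 was 21.1, 21.7 and 25.2 CPM in WT-RA and 25.02, 29.6 and 33.8 CPM in WT-O2, and 1 WT-O2 lung lay within the range of WT-RA. Its rise of 0.38 ± 0.12 in WT (adjusted p = 0.0207) was not called without WT-O2 replicate 3 (0.27, adjusted p = 0.112). In GSDMD-KO, Bbc3 was 28.8, 32.7 and 25.1 CPM in room air and 30.1, 28.5 and 31.0 CPM in hyperoxia, a log2 difference of 0.05 with a 95% interval of -0.21 to 0.31. Trp53inp1 was 105, 61.1 and 62.6 CPM in WT-RA and 132, 118 and 109 CPM in WT-O2. It was 80.0, 83.1 and 116 CPM in KO-RA and 135, 113 and 143 CPM in KO-O2, where the groups overlapped. The log2 changes were 0.65 ± 0.21 (adjusted p = 0.0269) and 0.49 ± 0.21 (adjusted p = 0.0863). In WT the call on Trp53inp1 was lost without WT-RA replicate 3 (adjusted p = 0.101). In GSDMD-KO it was lost without any 1 of WT-O2 replicates 1 and 2, KO-RA replicates 1 and 2 and KO-O2 replicates 1 and 3 (adjusted p = 0.104 to 0.226).

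Phlda3, the AKT inhibitor, was 49.7, 59.5 and 76.4 CPM in WT-RA and 180, 213 and 230 CPM in WT-O2. It was 62.9, 71.9 and 61.1 CPM in KO-RA and 196, 214 and 199 CPM in KO-O2. No hyperoxic lung came near the room-air range, and the log2 changes were 1.74 ± 0.14 (adjusted p = 3.28e-07) and 1.64 ± 0.14 (adjusted p = 6.86e-07).

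Eda2r went from a low level, though one above the detection limit, to a clear level. It was 1.26, 1.61 and 1.82 CPM in WT-RA and 49.4, 40.3 and 48.9 CPM in WT-O2, and 1.26, 1.14 and 1.32 CPM in KO-RA and 56.9, 41.5 and 50.04 CPM in KO-O2. Even the lowest hyperoxic lung was far above the highest room-air lung. The log2 changes were 4.88 ± 0.16 (adjusted p = 4.53e-11) in WT and 5.31 ± 0.17 (adjusted p = 7.82e-11) in GSDMD-KO. Ranked by p over all 16819 genes, Eda2r stood 6th in WT and 1st in GSDMD-KO. It is an X-linked gene, and the sexes were unbalanced. With the Y-linked markers as a covariate the WT comparison gave 10 calls of 10 and the GSDMD-KO comparison 8, Eda2r among them in both.

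Gdf15, the secreted cytokine, showed the largest log2 change of the 10 in WT, the next to Eda2r in GSDMD-KO, and the largest standard errors. It was 1.01, 1.45 and 1.65 CPM in WT-RA and 40.2, 55.1 and 118 CPM in WT-O2. In GSDMD-KO it was 1.47, 1.21 and 1.42 CPM in room air and 49.5, 38.1 and 29.4 CPM in hyperoxia. A single WT-O2 lung stood far above the others of its group. The log2 changes were 5.69 ± 0.48 (adjusted p = 1.37e-05) and 4.83 ± 0.48 (adjusted p = 4.24e-05). Zmat3 was among the tightest, at 23.7, 19.9 and 25.3 CPM in WT-RA and 106, 113 and 111 CPM in WT-O2. It was 20.3, 25.3 and 24.2 CPM in KO-RA and 138, 132 and 119 CPM in KO-O2, so that all 3 KO-O2 lungs lay above the 3 WT-O2 lungs. Zmat3 rose by 2.26 ± 0.10 (adjusted p = 2.16e-09) and 2.48 ± 0.11 (adjusted p = 9.60e-10).

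Levels of different genes were compared per kilobase of merged exons (CPM per kb, mean ± SD, n = 3). In WT-RA lungs Phlda3 (39.7 ± 8.67) and Bax (29.9 ± 3.63) were highest and Gdf15 (0.740 ± 0.176) and Eda2r (0.266 ± 0.0487) lowest. In WT-O2 lungs the order was Cdkn1a (254 ± 28.4), Phlda3 (133 ± 16.2), Bax (84.5 ± 12.0) and Ccng1 (77.5 ± 6.60), of which Bax and Ccng1 overlapped. Cdkn1a (19.4 ± 5.45 in WT-RA), which in room air stood behind Phlda3 and Bax and overlapped Ccng1 (20.1 ± 2.72), was thus first in hyperoxia, and Eda2r (7.84 ± 0.873) remained last in spite of its large fold change. In KO-RA the mean of Cdkn1a (23.2 ± 7.30) was above that of Ccng1 (20.04 ± 1.70), but the samples of the genes overlapped. Phlda3, Bax and Ccng1 kept this order behind Cdkn1a in KO-O2 lungs, where Bax (81.4 ± 1.39) and Ccng1 (81.3 ± 8.22) did not differ beyond their spread.

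Cell-type markers moved with hyperoxia too. The 5 macrophage markers, none of them at 0, summed to 217 to 249 CPM in WT-RA, 357 to 394 in WT-O2, 181 to 202 in KO-RA and 292 to 357 in KO-O2. The 4 lung epithelium markers summed to 29430 to 33130 CPM in WT-RA, 21730 to 25150 in WT-O2, 28360 to 33700 in KO-RA and 19420 to 22990 in KO-O2. With the macrophage markers as a covariate, which itself follows the exposure, the calls numbered 5 of 10 in WT and 3 of 10 in GSDMD-KO, against 2.42% and 1.28% of all genes. Most lost calls had log2 changes of like size with larger errors. In WT they were 1.20 ± 0.36 for Mdm2, 1.53 ± 0.45 for Phlda3, 4.79 ± 1.54 for Gdf15, 0.28 ± 0.40 for Bbc3 and 1.75 ± 0.59 for Trp53inp1 (adjusted p = 0.139 to 0.853), the last up from 0.65. In GSDMD-KO Cdkn1a was at 3.51 ± 0.86 (adjusted p = 0.125), Mdm2 at 1.27 ± 0.39, Bax at 1.44 ± 0.40, Phlda3 at 1.41 ± 0.47, Gdf15 at 3.86 ± 1.61 and Trp53inp1 at 1.68 ± 0.63 (adjusted p = 0.148 to 0.425), the last up from 0.49. The 5 erythroid markers summed to 15930 and 18010 CPM in KO-O2 replicates 1 and 2 but to 3561 in replicate 3 and to 1730 to 2490 in WT-O2. With them as a covariate each genotype kept 8 calls of 10, against 21.6% and 44.8% of all genes. Leaving out 1 lung at a time, among them the KO-O2 lung with liver markers, left 9 or 10 genes called in WT and 8 or 9 in GSDMD-KO.

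**Figure D2:**
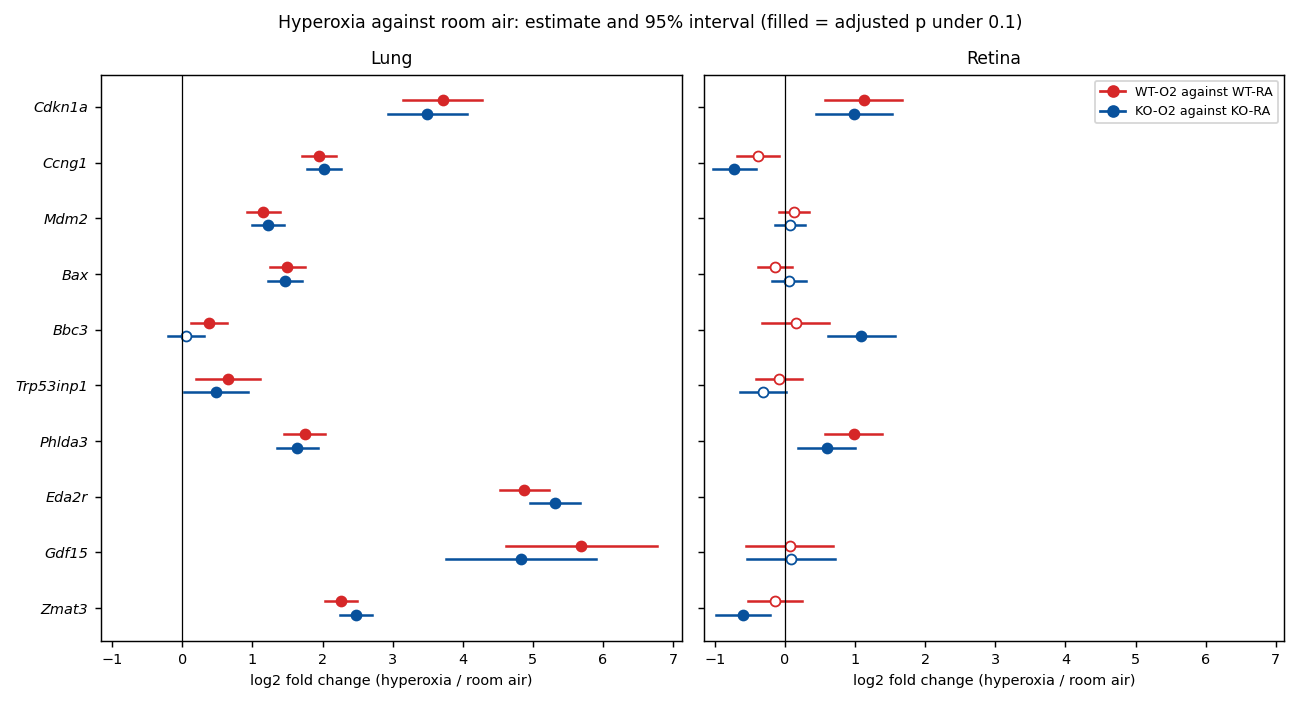
Log2 fold change of hyperoxia over room air with its 95% interval for each p53 target gene in lung (left) and retina (right), WT in red and GSDMD-KO in blue. Filled points passed an adjusted p of 0.1. In the lung all but Bbc3 of GSDMD-KO are filled, and in the retina 2 are filled in WT and 5 in GSDMD-KO, 2 of these below 0.

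The rest of the p53 pathway was read from lists. Trp53, the gene of p53 itself, rose slightly, from 79.9, 85.4 and 115 CPM in WT-RA to 113, 128 and 130 CPM in WT-O2 (0.41 ± 0.13, adjusted p = 0.0254). In GSDMD-KO it went from 98.0, 93.3 and 77.7 CPM to 133, 127 and 107 CPM (0.45 ± 0.13, adjusted p = 0.0164). The WT call was lost without WT-RA replicate 1 (adjusted p = 0.104). Of the 16 genes of p53 and its regulators, 3 rose and 2 fell in WT, and 3 rose and 1 fell in GSDMD-KO, with medians of 0.11 and 0.13. Called genes were thus fewer in this list than the 49.2% and 46.7% over all genes. Mdm4, the other main inhibitor of p53, fell by 0.55 ± 0.09 and by 0.67 ± 0.09 (adjusted p = 0.000301 and 5.66e-05), opposite to Mdm2. Ppm1d, a phosphatase that acts on p53, fell by 0.31 ± 0.08 in WT (adjusted p = 0.0051) and was not called in GSDMD-KO (-0.11 ± 0.08, adjusted p = 0.267).

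Other p53 targets rose less uniformly than the 10 genes. In the growth arrest list 4 of 8 rose in WT and 5 of 8 in GSDMD-KO and none fell (medians 0.61 and 0.95). Gtse1 rose by 3.10 ± 0.17 and 2.67 ± 0.16, Ptprv by 1.64 ± 0.28 and 1.46 ± 0.27, Plk3 by 1.02 ± 0.18 and 1.48 ± 0.18, and Sfn by 1.16 ± 0.11 and 0.91 ± 0.11. In the cell death list 7 of 10 rose and 1 fell in WT, and 9 rose and 1 fell in GSDMD-KO (medians 0.54 and 0.66). Pidd1, a death domain protein, rose by 2.15 ± 0.12 and 1.81 ± 0.12, the nuclease gene Aen by 1.93 ± 0.10 and 1.96 ± 0.10, and the death receptor gene Tnfrsf10b by 1.48 ± 0.21 and 1.73 ± 0.21. In the list of DNA repair and nucleotide supply 2 of 6 rose and 3 fell in WT, and 1 rose and 3 fell in GSDMD-KO. The polymerase gene Polk rose by 1.44 ± 0.15 and 1.72 ± 0.15. Ddb2 (-0.54 ± 0.10 and -0.33 ± 0.10), Rrm2b (-0.44 ± 0.13 and -0.53 ± 0.13) and Xpc (-0.40 ± 0.09 and -0.21 ± 0.09) fell in both genotypes. In the list of metabolism and signaling 8 of 10 rose and 1 fell in WT, and 7 rose and 1 fell in GSDMD-KO. Ddit4l rose by 2.26 ± 0.22 and 2.74 ± 0.23, Zfp365 by 1.70 ± 0.11 and 1.65 ± 0.11, and Rps27l by 1.07 ± 0.10 and 1.20 ± 0.10, while Sesn1, a sestrin, fell by 1.15 ± 0.12 and by 1.38 ± 0.12. All the genes named here had an adjusted p under 0.1 in both genotypes, at most 0.0774 (Xpc in GSDMD-KO), and Xpc in GSDMD-KO lost its call without KO-RA replicate 1 or any 1 of the 3 KO-O2 lungs (adjusted p = 0.127 to 0.359). The share of all genes called in either direction was 49.2% in WT and 46.7% in GSDMD-KO.

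Cdkn1a moved apart from the other cyclin-dependent kinase inhibitors. Of 7 such genes 1 rose and 4 fell in each genotype (medians -0.53 and -0.54). Cdkn1c (p57) fell by 1.70 ± 0.09 and by 1.61 ± 0.09, Cdkn1b (p27) by 0.93 ± 0.10 and by 0.71 ± 0.10, and Cdkn2c (p18) by 1.18 ± 0.17 and by 0.98 ± 0.17, while Cdkn2b (p15) rose by 0.86 ± 0.11 and 0.77 ± 0.11. Mitotic and S-phase genes, which are repressed downstream of p21 in many cells, were not lower in RNA: 10 of 16 rose and none fell in WT, and 3 rose and none fell in GSDMD-KO (medians 0.49 and 0.26). On lung sections the study counted nuclei stained for Ki67 protein. It reported a lower share in WT after hyperoxia, and a higher share in hyperoxic GSDMD-KO than in hyperoxic WT lungs. RNA of whole lung is a different measure. Of all genes 24.5% were called higher in WT and 23.3% in GSDMD-KO, so that the 3 of 16 lay below the share over all genes. Aurkb rose by 0.86 ± 0.17 in WT (adjusted p = 0.00114) and was not called in GSDMD-KO (0.18 ± 0.17, adjusted p = 0.415), and Ccnb1 rose by 0.85 ± 0.20 and 0.59 ± 0.20, the latter lost without KO-RA replicate 2 or KO-O2 replicate 2 (adjusted p = 0.122 and 0.135). Between genotypes edgeR called none of these 16 genes in hyperoxia, in room air or for the interaction. In room air 15 of 16 were higher in GSDMD-KO (median 0.30), 4 at an unadjusted p under 0.05, against 10.5% of all genes. DESeq2 called 1 there, Aurkb, higher in KO-RA. In the BCL-2 family 6 of 16 rose and 3 fell in WT, and 8 rose and 2 fell in GSDMD-KO, 9 and 10 called of 16, near the 49.2% and 46.7% of all genes called. Bid rose by 0.70 ± 0.13 and 0.77 ± 0.13 and Pmaip1 (Noxa) by 0.79 ± 0.19 and 1.06 ± 0.19, while Bmf fell by 1.00 ± 0.11 in both and Bcl2l11 (Bim) by 1.03 ± 0.09 and by 0.87 ± 0.09.

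Most genes of other stress responses were called higher in the same lungs, against 24.5% of all genes in WT and 23.3% in GSDMD-KO. Of 8 genes of the integrated stress response, 6 rose, 2 were not called and none fell in each genotype, with Asns at 0.96 ± 0.10 and 1.05 ± 0.10, Atf4 at 0.65 ± 0.13 and 0.63 ± 0.13, Trib3 at 0.77 ± 0.15 and 0.71 ± 0.15, and Atf3 at 1.46 ± 0.40 and 2.63 ± 0.43. Of 6 tested targets of NRF2, the regulator of antioxidant genes, 6 rose in WT and 5 in GSDMD-KO, where 1 was not called, with Srxn1 at 2.33 ± 0.12 and 2.13 ± 0.12, Nqo1 at 2.04 ± 0.18 and 1.78 ± 0.17, Txnrd1 at 1.48 ± 0.10 and 1.27 ± 0.10, and Gclm at 0.85 ± 0.11 and 0.56 ± 0.11. Gdf15 is also known as a target of the integrated stress response.

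**Figure D3:**
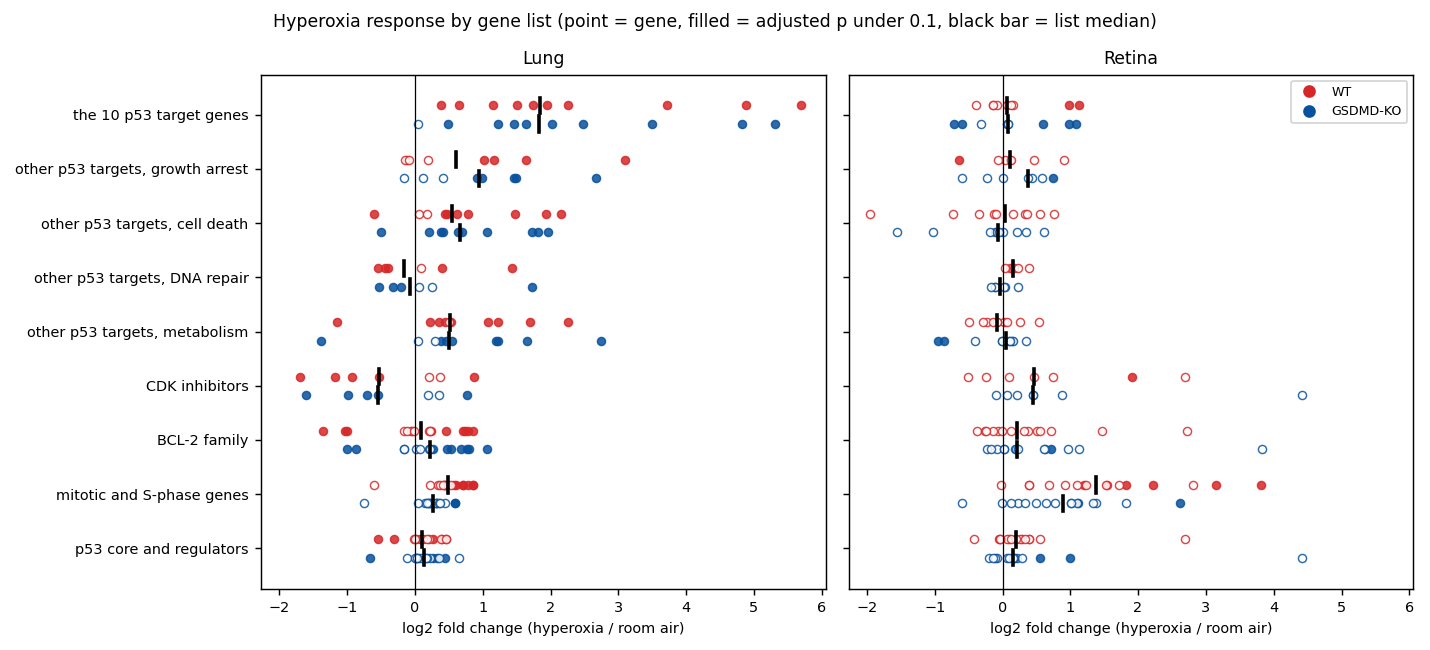
Log2 fold change of hyperoxia over room air for each gene of 9 lists in lung (left) and retina (right), WT in red and GSDMD-KO in blue. Filled points passed an adjusted p of 0.1 and black bars are list medians. In the lung the 10 target genes, in the top row, have medians of 1.85 and 1.83, and in the retina medians of 0.06 and 0.07.

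The genotypes were then compared directly. In hyperoxic lungs (KO-O2 against WT-O2) none of the 10 genes was called by the same edgeR test, against 0.0416% of all genes, and 2 had an unadjusted p under 0.05, against 6.21% of all genes. Those were Gdf15 (-0.87, 95% interval -1.67 to -0.07, adjusted p = 0.774) and Zmat3 (0.23, 0.02 to 0.44, adjusted p = 0.766), of which Zmat3 did not overlap between the groups, as 6.33% of all genes did not in this direction. Without WT-O2 replicate 3, the lung with the highest Gdf15, its difference was -0.30 (adjusted p = 1), and over all lungs left out it ran from -1.15 to -0.30. DESeq2 called none of the 10. For 6 of the other genes, Mdm2, Ccng1, Phlda3, Eda2r, Bax and Bbc3, the whole 95% interval lay between -0.31 and 0.36, and for Cdkn1a and Trp53inp1 it was -0.46 to 0.55 and -0.33 to 0.58. In room air (KO-RA against WT-RA) none was called, against 0.488% of all genes, and of the 10 only Bbc3 had an unadjusted p under 0.05 (0.35, 0.09 to 0.61, adjusted p = 0.299), against 10.5% of all genes. DESeq2 called none there. The difference of the hyperoxia responses between genotypes was called for none, against 0.00595% of all genes, with 0 at an unadjusted p under 0.05 (6.72% of all genes) and 0 called by DESeq2. It was 0.43 for Eda2r (-0.07 to 0.94), -0.33 for Bbc3 (-0.69 to 0.03) and -0.86 for Gdf15 (-2.44 to 0.72), whose interval was wide and whose value was -0.29 without WT-O2 replicate 3. The call of Bbc3 in WT and its absence in GSDMD-KO was thus not shown to be a difference between the genotypes.

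**Figure D4:**
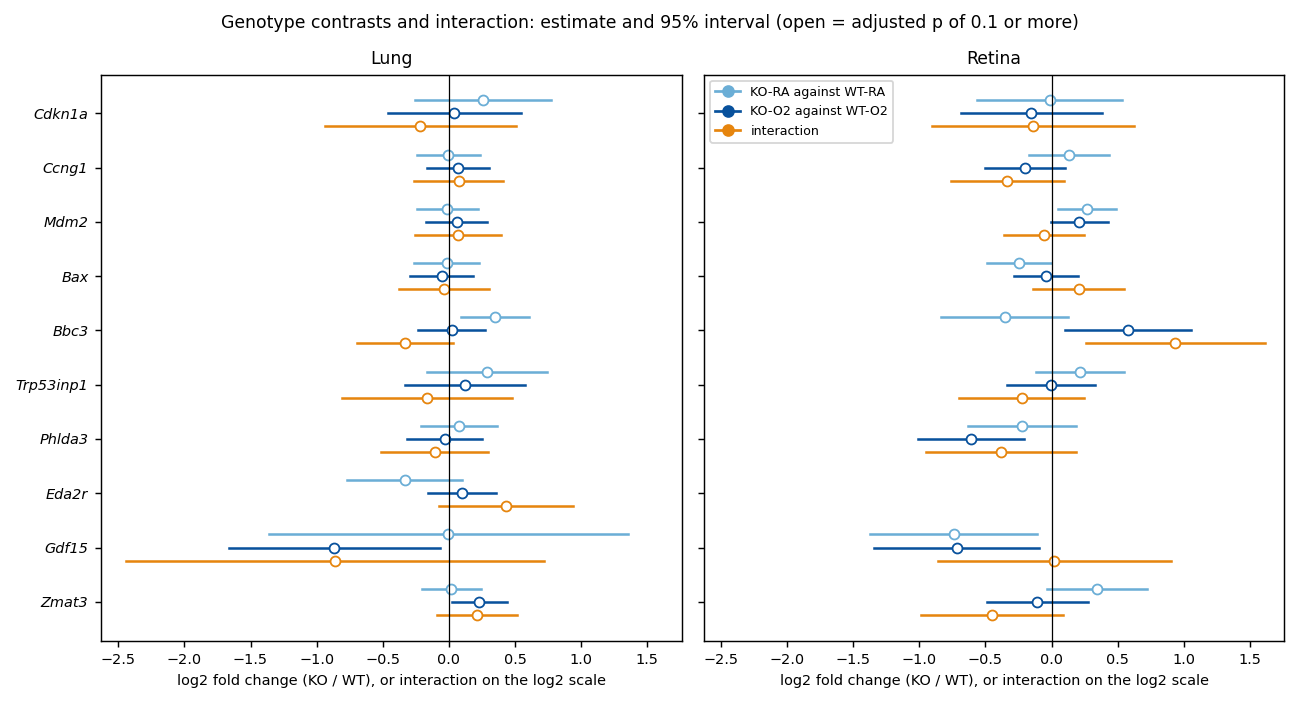
Log2 differences between GSDMD-KO and WT in room air and in hyperoxia, and the difference of the 2 hyperoxia responses (interaction), with 95% intervals, in lung (left) and retina (right). All points are open since none passed an adjusted p of 0.1. The interval of Gdf15 for the interaction in the lung, -2.44 to 0.72, is among the widest.

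Fewer of the genes were called in the retina than in the lung. Their summed level was 217 to 244 CPM in the 6 room-air retinas and 220 to 254 CPM in the 6 retinas after hyperoxia. In WT, 2 of the 9 tested genes rose, Cdkn1a and Phlda3, and none fell, against 3.11% of the 19173 genes tested that were called higher and 5.16% called in either direction. In GSDMD-KO, 3 rose, Cdkn1a, Phlda3 and Bbc3, and 2 fell, Ccng1 and Zmat3, against 4.38% of all genes called higher and 3.44% lower. Over all genes 7.82% were called in either direction there. Median log2 changes of the 9 genes were 0.06 and 0.07, and 0.00 over all genes in both genotypes. The study's 2-fold limit was passed by 1 gene in each genotype, Cdkn1a in WT and Bbc3 in GSDMD-KO, against 1.77% and 1.64% of all genes upward. Without the 3 libraries with lens RNA no gene was called in WT and 1, Ccng1, in GSDMD-KO, against 4.04% and 3.56% of all genes. With the lens markers as a covariate none was called in WT and 3 in GSDMD-KO.

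**Figure D5:**
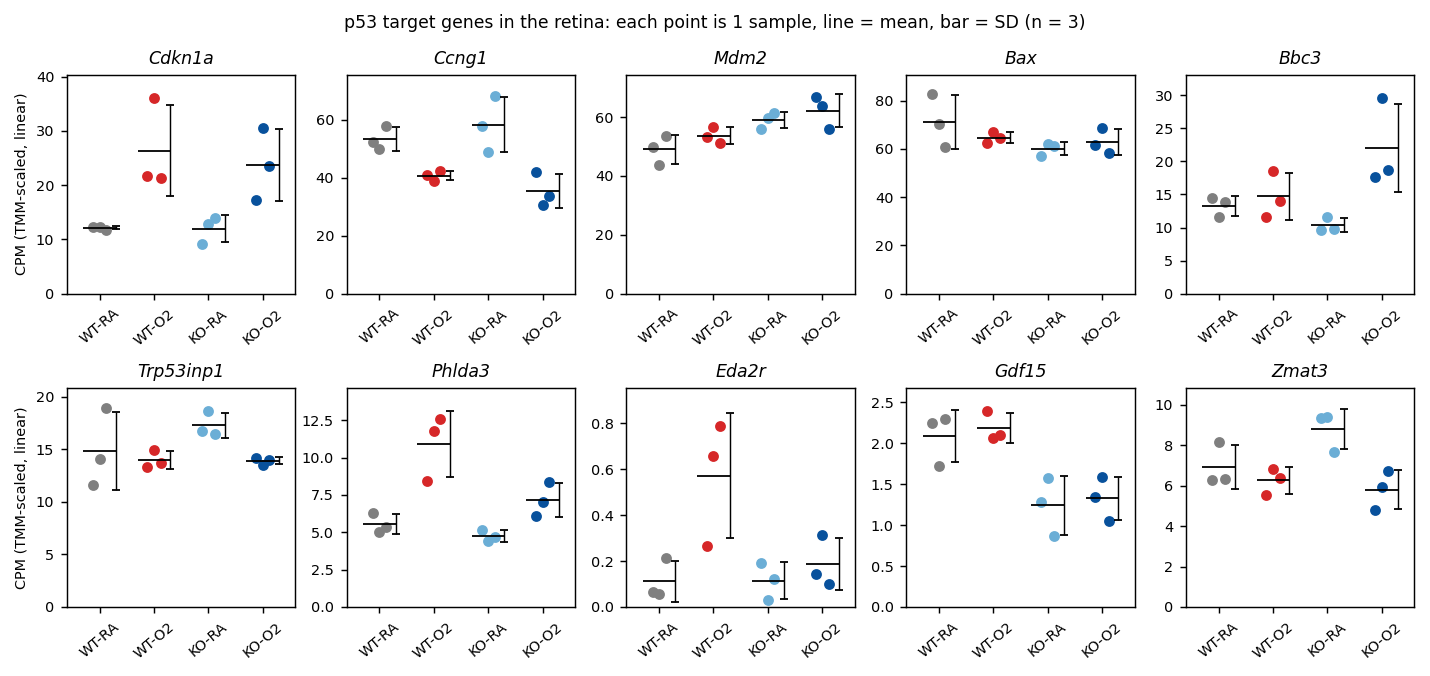
Levels of the 10 p53 target genes in the retina in CPM on a linear axis, by group. Each point is 1 retina sample, the line the mean and the bar the SD (n = 3). Cdkn1a, for example, sits between 9.13 and 14.02 CPM in the 6 room-air samples and between 17.3 and 36.0 CPM in the 6 samples after hyperoxia.

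Cdkn1a was 12.2, 12.3 and 11.8 CPM in WT-RA retinas and 21.7, 36.0 and 21.4 CPM in WT-O2. It was 9.13, 12.9 and 14.02 CPM in KO-RA and 17.3, 30.6 and 23.4 CPM in KO-O2. The groups did not overlap in either genotype, which held for 12% and 13.4% of all genes in this direction. The log2 changes were 1.12 ± 0.25 (adjusted p = 0.0397) and 0.98 ± 0.25 (adjusted p = 0.051). In WT the call was lost without WT-RA replicate 1 or 2 or WT-O2 replicate 2 (adjusted p = 0.125 to 0.143), where the change was 0.83 to 1.13. In GSDMD-KO it was lost without KO-RA replicate 1 or 2 or KO-O2 replicate 2 or 3 (adjusted p = 0.106 to 0.212). Without the lens libraries the changes were 1.10 ± 0.42 and 1.11 ± 0.32 (adjusted p = 0.208 and 0.133). WT-RA replicate 1, the sample without lens RNA, at 12.2 CPM was close to the others of its group.

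Ccng1, the other cell-cycle gene, was lower after hyperoxia, where it had risen in the lung. It was 52.2, 49.7 and 57.7 CPM in WT-RA and 40.9, 39.0 and 42.1 CPM in WT-O2, and 57.9, 48.9 and 68.0 CPM in KO-RA and 41.9, 30.4 and 33.8 CPM in KO-O2. The O2 samples lay below the room-air samples in both genotypes, which held for 11.9% and 12.7% of all genes. The log2 difference in WT, -0.39 ± 0.14, was not called (adjusted p = 0.176), though DESeq2 called it (adjusted p = 0.0908). In GSDMD-KO Ccng1 fell by 0.72 ± 0.14 (adjusted p = 0.0196), and without the lens libraries by 0.59 ± 0.14 (adjusted p = 0.0955).

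Mdm2 was 49.8, 43.7 and 53.7 CPM in WT-RA and 53.4, 56.7 and 51.2 CPM in WT-O2. It was 56.0, 59.7 and 61.4 CPM in KO-RA and 66.7, 63.9 and 56.0 CPM in KO-O2. The O2 and room-air samples overlapped, with differences of 0.13 (95% interval -0.08 to 0.35) and 0.07 (-0.14 to 0.29), all well under a 2-fold change.

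Bax was 82.8, 70.3 and 60.6 CPM in WT-RA and 62.4, 67.0 and 64.3 CPM in WT-O2. It was 57.1, 62.1 and 61.1 CPM in KO-RA and 61.6, 68.6 and 58.2 CPM in KO-O2. These overlapped, with differences of -0.14 (-0.38 to 0.10) and 0.06 (-0.18 to 0.31). Bbc3 was called in GSDMD-KO and not in WT. In WT it was 14.4, 11.5 and 13.8 CPM in WT-RA and 11.5, 18.6 and 13.996 CPM in WT-O2, a difference of 0.15 (-0.32 to 0.63). In GSDMD-KO it was 9.67, 11.6 and 9.77 CPM in room air and 17.6, 29.7 and 18.7 CPM after hyperoxia, with no overlap. Bbc3 rose there by 1.09 ± 0.22 (adjusted p = 0.0229), and the call held without any 1 library but not without the lens libraries (1.05 ± 0.28, adjusted p = 0.113). The response of Bbc3 differed between genotypes by 0.94 ± 0.31 with an unadjusted p of 0.011 that did not pass adjustment (adjusted p = 0.305 in edgeR's quasi-likelihood test). Trp53inp1 was 11.7, 14.04 and 18.9 CPM in WT-RA and 13.3, 14.98 and 13.7 CPM in WT-O2, and 16.8, 18.7 and 16.4 CPM in KO-RA and 14.2, 13.5 and 14.03 CPM in KO-O2. The GSDMD-KO groups did not overlap, but neither difference was called (-0.09 ± 0.15 and -0.31 ± 0.15, adjusted p = 0.834 and 0.276).

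Phlda3 was 6.28, 5.00 and 5.35 CPM in WT-RA and 8.41, 11.8 and 12.6 CPM in WT-O2. It was 5.16, 4.39 and 4.69 CPM in KO-RA and 6.12, 7.04 and 8.36 CPM in KO-O2. No O2 sample reached down to the room-air range of its genotype. Phlda3 rose by 0.98 ± 0.18 in WT (adjusted p = 0.0206) and by 0.60 ± 0.18 in GSDMD-KO (adjusted p = 0.0989). The WT call held without any 1 library, the one labelled WT-RA replicate 2 included (0.91, adjusted p = 0.0911), and was lost without the 3 lens libraries (0.79 ± 0.29, adjusted p = 0.196). The GSDMD-KO call was lost without any 1 of 9 libraries, all but WT-RA, WT-O2 and KO-O2 replicate 1 (adjusted p = 0.118 to 0.264), and without the lens libraries (adjusted p = 0.234).

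Eda2r, the gene with the firmest rise in the lung, was barely detected in the retina, with 1 to 23 rounded expected counts a library. Since 2.2% of the nonzero retina values were whole, the deposited values may have been scaled, and a count there may not stand for 1 read. It was 0.065, 0.0561 and 0.214 CPM in WT-RA, 0.267, 0.658 and 0.787 CPM in WT-O2, 0.190, 0.030 and 0.122 CPM in KO-RA and 0.143, 0.313 and 0.101 CPM in KO-O2. A count of 3 is 0.0936 to 0.129 CPM in these libraries, so most values outside WT-O2 rest on a few counts, and Eda2r was not tested. Gdf15 was also low, at 2.24, 1.73 and 2.29 CPM in WT-RA, 2.39, 2.07 and 2.10 CPM in WT-O2, 1.29, 1.58 and 0.862 CPM in KO-RA, and 1.34, 1.59 and 1.06 CPM in KO-O2. Its log2 differences after hyperoxia were 0.06 ± 0.28 and 0.09 ± 0.29, both uncalled, with intervals between -0.56 and 0.72. Zmat3 was 6.28, 8.19 and 6.36 CPM in WT-RA and 5.54, 6.85 and 6.40 CPM in WT-O2, which overlapped. It was 9.34, 9.40 and 7.65 CPM in KO-RA and 4.78, 5.96 and 6.71 CPM in KO-O2, which did not. Zmat3 fell by 0.60 ± 0.17 in GSDMD-KO (adjusted p = 0.0823), a call lost without any 1 of WT-O2 replicates 2 and 3, the 3 KO-RA samples and KO-O2 replicates 1 and 2 (adjusted p = 0.107 to 0.225) and without the lens libraries (adjusted p = 0.116). In WT its difference was -0.15 ± 0.17 (adjusted p = 0.733).

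Per kilobase of exon, Bax was the highest of the 10 genes in every retina group, at 45.2 ± 7.05 CPM per kb in WT-RA and 41.0 ± 1.47 in WT-O2. Ccng1 (15.1 ± 1.16) and Mdm2 (9.65 ± 0.993) came next in WT-RA. Cdkn1a stood sixth in WT-RA at 3.41 ± 0.0745 CPM per kb and close to Phlda3 (3.56 ± 0.426), and after Bax, Ccng1 and Mdm2 in WT-O2 at 7.42 ± 2.35, close to Phlda3 (7.01 ± 1.42) and Bbc3 (6.93 ± 1.69). Gdf15, Zmat3 and Eda2r were the lowest in all groups.

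Other values moved beside these calls. The 5 macrophage or microglia markers, none at 0, summed to 33.9 to 50.7 CPM in WT-RA, 75.5 to 110 in WT-O2, 30.2 to 45.9 in KO-RA and 69.8 to 103 in KO-O2. With them as a covariate no target gene was called in either genotype, and 0% of all genes were. The 3 retinal pigment epithelium markers summed to 62.5 to 215 CPM in WT-RA and 22.4 to 68.0 in WT-O2. In GSDMD-KO they summed to 114 to 1061 CPM in KO-RA and 30.0 to 85.35 in KO-O2. They were not used as a covariate. The 4 endothelial markers summed to 52.7 to 61.7 CPM in WT-RA, 99.5 to 106 in WT-O2, 65.2 to 78.5 in KO-RA and 80.3 to 88.6 in KO-O2. The 5 erythroid markers summed to 397 to 644 CPM in WT-RA, 601 to 913 in WT-O2, 310 to 481 in KO-RA and 219 to 268 in KO-O2. With them as a covariate 1 gene was called in WT, Phlda3, and none in GSDMD-KO, against 2.92% and 0.00522% of all genes. Y-linked markers as a covariate left 0 genes called in WT and 2, Ccng1 and Bbc3, in GSDMD-KO, against 2.12% and 3.84%. The part of these cell types and of sex in the calls was not tested beyond these fits.

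Trp53 in the retina was 26.8, 26.9 and 29.9 CPM in WT-RA and 36.1, 36.5 and 32.2 CPM in WT-O2 (0.33 ± 0.10, adjusted p = 0.109). In GSDMD-KO it was 20.7, 22.6 and 20.8 CPM in room air and 29.03, 34.5 and 30.1 CPM after hyperoxia. The groups did not overlap in either genotype, and Trp53 rose by 0.55 ± 0.10 in GSDMD-KO (adjusted p = 0.0147). In room air Trp53 was lower in all KO-RA than in all WT-RA samples, as 7.05% of all genes were. DESeq2 called this difference between the genotypes and edgeR did not. After hyperoxia the genotypes overlapped in Trp53. Of the 15 tested genes of p53 and its regulators none was called in WT, with 2 at an unadjusted p under 0.05 and 1, Trp53, called by DESeq2 (adjusted p = 0.04), and 2 rose in GSDMD-KO, the other being Chek2 (1.00 ± 0.22, adjusted p = 0.0311), lost without KO-RA replicate 1 or KO-O2 replicate 2 (adjusted p = 0.103 and 0.117).

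Of the other p53 targets few were called in the retina, as were few of all genes (5.16% in WT and 7.82% in GSDMD-KO, either direction). In the growth arrest list 1 of 7 fell in WT, Rprm (-0.64 ± 0.14, adjusted p = 0.0376), lost without WT-RA replicate 1 or any 1 of the WT-O2 samples (adjusted p = 0.103 to 0.128), and 1 rose in GSDMD-KO, Gadd45a (0.74 ± 0.13, adjusted p = 0.0147). In the lists of cell death (10 genes) and DNA repair (6 genes) none was called in either genotype, with 1 and 1 at an unadjusted p under 0.05 for cell death and 0 and 1 for DNA repair in WT and GSDMD-KO. Of these DESeq2 called 1, Perp of the cell death list in WT (-1.95, adjusted p = 0.0594). In metabolism and signaling none was called in WT, with 1 at an unadjusted p under 0.05 and 0 called by DESeq2, and 2 of 10 fell in GSDMD-KO, Zfp365 (-0.96 ± 0.10, adjusted p = 0.00182) and Ddit4l (-0.86 ± 0.23, adjusted p = 0.0597). Both Zfp365 and Ddit4l rose in the lung. Ddit4l lost its call without KO-RA replicate 1 or 3 or KO-O2 replicate 2 or 3 (adjusted p = 0.152 to 0.212). List medians lay between -0.08 and 0.38.

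Of 16 mitotic and S-phase genes 6 rose in WT retinas (median 1.38) and 2 in GSDMD-KO (median 0.89), and none fell in either, against 3.11% and 4.38% of all genes called higher. In WT the calls on Ccnb2, Cdk1 and Birc5 were lost together without WT-RA replicate 1 (adjusted p = 0.116, 0.154 and 0.146), WT-RA replicate 2 (0.139, 0.133 and 0.15) or WT-O2 replicate 3 (0.131, 0.115 and 0.146). Those on Ccnb2 and Cdk1 were lost without WT-O2 replicate 2 (0.151 and 0.101) and that on Birc5 without WT-O2 replicate 1 (0.112). Mki67, a marker of cycling cells, rose by 3.82 ± 0.71 in WT (adjusted p = 0.0199) and by 2.62 ± 0.70 in GSDMD-KO (adjusted p = 0.0639), the latter lost without WT-O2 replicate 1 or 3, any 1 of the KO-RA samples or KO-O2 replicate 2 (adjusted p = 0.1 to 0.199). Between genotypes after hyperoxia 2 of these 16 genes were called lower in GSDMD-KO (median -0.85), against 0.704% of all genes. All KO-O2 samples lay below all WT-O2 samples in 11 of 16, against 9.79% of all genes. For the interaction edgeR and DESeq2 called none of the 16. Of the cyclin-dependent kinase inhibitors other than Cdkn1a, Cdkn3 rose in WT (1.92 ± 0.50, adjusted p = 0.0723), lost without any 1 of the 3 WT-RA samples, WT-O2 replicates 2 and 3 and KO-O2 replicate 3 (adjusted p = 0.1 to 0.223), and none was called in GSDMD-KO, with 2 at an unadjusted p under 0.05 and 0 called by DESeq2. In the BCL-2 family none of 14 was called in WT, with 4 at an unadjusted p under 0.05 and 1, Mcl1, called by DESeq2 (adjusted p = 0.0326), and Bcl2l11 rose in GSDMD-KO (0.71 ± 0.16, adjusted p = 0.0342), lost without KO-RA replicate 3 or KO-O2 replicate 2 (adjusted p = 0.107 and 0.137). In the lung Bcl2l11 fell. Of 8 genes of the integrated stress response Atf3 (1.59 ± 0.24, adjusted p = 0.0069) and Trib3 (0.87 ± 0.22, adjusted p = 0.059) rose in WT, the latter lost without WT-RA replicate 2 or 3 or WT-O2 replicate 1 or 3 (adjusted p = 0.114 to 0.191). None was called in GSDMD-KO, with 1 at an unadjusted p under 0.05 and 1, Trib3, called by DESeq2 (adjusted p = 0.0841). No NRF2 target was called in either genotype, with 2 at an unadjusted p under 0.05 in each, and DESeq2 called 0 in WT and 1 in GSDMD-KO, Gsta1, which has near-identical copies. Without the 3 lens libraries the WT calls on Cdkn3, Ccnb2, Birc5 and Trib3 (adjusted p = 0.122, 0.187, 0.176 and 0.388) and the GSDMD-KO calls on Ddit4l and Bcl2l11 (0.158 and 0.104) were lost, while Cdkn2a and Plk2 were called higher in GSDMD-KO (0.0855 and 0.0978).

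Between genotypes none of the 9 genes was called in the retina, against 1.27% of all genes after hyperoxia, 0.00522% in room air and 0.00522% for the interaction. Unadjusted p-values under 0.05 numbered 3, 3 and 1, against 12.6%, 12.7% and 10.6% of all genes. DESeq2 called 1 of the 9 after hyperoxia, Phlda3, and none in room air or for the interaction. For retinas after hyperoxia the study named p53 signaling among the pathways tied to genes suppressed in GSDMD-KO against WT. That came from an enrichment test with other genes and limits, which was not run here. After hyperoxia Phlda3 was lower in GSDMD-KO in all samples (-0.61, 95% interval -1.01 to -0.21, adjusted p = 0.188, and 0.0682 with DESeq2), and no overlap downward held for 9.79% of all genes. Gdf15 was lower in GSDMD-KO in room air (-0.74, -1.37 to -0.11) and after hyperoxia (-0.72, -1.34 to -0.09), with no overlap between genotypes in either condition, and neither passed adjustment (adjusted p = 0.333 and 0.318). Mdm2 was higher in all KO-RA than in all WT-RA samples (0.27, 0.05 to 0.48, adjusted p = 0.319). In room air 10.7% of all genes had no overlap upward and 7.05% downward. In room air 3 of the 6 samples of these comparisons carried lens RNA, 1 of them the library whose Gsdmd level went against its label. In the pathway lists edgeR called 2 of 16 mitotic and S-phase genes lower in GSDMD-KO after hyperoxia. It also called 1 of 8 integrated stress response and 1 of 10 metabolism and signaling genes lower. DESeq2 called Ccnb2, Plk1, Atf3 and Zfp365 lower there and Gadd45a higher. In room air DESeq2 called Trp53 and Chek2 lower and Zfp365 higher, and edgeR none. For the interaction DESeq2 called Gadd45a and Zfp365, and edgeR none.

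The genes differed in how the tissues stood to each other. Lung and retina came from different animals, exposures and ages and from tables made separately, so the values are set side by side with no test between them. Cdkn1a and Phlda3 were the genes called higher in both tissues and both genotypes, with log2 changes of 3.71 and 3.49 in the lung and 1.12 and 0.98 in the retina for Cdkn1a, and 1.74 and 1.64 against 0.98 and 0.60 for Phlda3. Mdm2 and Bax, called in both genotypes in the lung, had 95% intervals in the retina that ended at 0.35 and 0.31 at most. Ccng1 and Zmat3, raised 3.86-fold or more in the lung, were called lower in the GSDMD-KO retina.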

How the data were processed

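RNA was sequenced from lung and retina of 24 mice, 3 in each of 4 groups per tissue. Per the labels each library has its own code and stands for 1 animal. Pooling of tissue is not given in the sources used here, and p-values measure the spread between these libraries. The authors checked reads with FastQC, estimated transcript abundance with kallisto and deposited, as summed with tximport, expected counts per gene in 1 table for each tissue. The study's methods name GRCm39 and the submitters' processing notes mm10. Nonzero values were whole (tolerance 0.01) in 55.8% of lung and 2.2% of retina entries, and were rounded here. Every value column matched a sample (0 unmapped). Replicate pairs differed by more than sampling noise (chi-square per gene 15.38 to 88.32 over 24 pairs).

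Samples were grouped by the labels. For each tissue the 12 samples entered 1 fit in edgeR 4.0.16 (limma 3.58.1, R 4.3.3): filterByExpr with a count minimum of 10 (total 15), TMM scaling and the robust quasi-likelihood test, with Benjamini-Hochberg adjustment over all tested genes (16819 in lung, 19173 in retina). Calls were made at adjusted p under 0.1. The study's stricter limits, which add p under 0.05 and at least a 2-fold change, were counted beside them. CPM were TMM-scaled. SE is the log2 fold change divided by the root of F. The comparisons were hyperoxia within each genotype, genotype within each condition, and their interaction. From each list the 4 genes with the smallest p in either hyperoxia comparison were eligible to be named, with Trp53, and a few others were named after their values were seen. The fit was tested on simulated data. The p53 decamer was searched in RefSeq promoter windows of GRCm38.p6.

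The libraries held 28763661 to 29604254 counts in lung and 24863257 to 29093035 in retina, and 3 counts were 0.100 to 0.106 CPM and 0.0936 to 0.129 CPM. Floors from counts cover counting error only. The intervals of log2 changes were built from the SE of the quasi-likelihood fit, which includes the spread between libraries. Alternatives were DESeq2 1.42.0, RLE scaling, no filter, fits of 2 groups, erythroid and Y-linked marker covariates and leaving out each library. Lens and macrophage covariates and leaving out the lens libraries were added after seeing the data. The genes and lists were chosen with earlier results of these data known.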

Additional observations from a re-analysis of the deposited data

Results flagged for a closer look

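The response to hyperoxia had opposite signs in the 2 tissues for Ccng1 in both genotypes and for Zmat3 in GSDMD-KO. In these 3 comparisons every hyperoxic lung lay above, and every retina after hyperoxia below, the room-air samples of its genotype. Of all genes, 24.6% in WT and 26.3% in GSDMD-KO did so upward in lung. Downward in retina the shares were 11.9% and 12.7%. In WT retinas Zmat3 overlapped. For Ccng1 the log2 change was 1.95 in lung and -0.39 in retina in WT, and 2.02 in lung and -0.72 in retina in GSDMD-KO. The WT change in retina was not called by edgeR (adjusted p = 0.176), though DESeq2 called it. For Zmat3 it was 2.48 in lung and -0.60 in retina in GSDMD-KO. That retina call was lost without any 1 of the libraries named above for Zmat3, and without the lens libraries. The difference between tissues was not tested, since the tissues came from different mice, exposures and separately made tables.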

How the results depend on the processing

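In the lung the count of target genes called with hyperoxia went from 10 to 5 in WT and from 9 to 3 in GSDMD-KO with the macrophage marker covariate. It was 8 with the erythroid covariate and with the study's limits in both genotypes, and in GSDMD-KO also with the male covariate and without a filter. Under the macrophage covariate Rrm2b (log2 change 0.0315) and Atf3 (-0.0396) turned their direction in WT. In the retina the count of 2 in WT became 3 with DESeq2 (Ccng1 added), 1 with the study's limits and with the erythroid covariate, and 0 with the male, macrophage or lens marker covariate or without the lens libraries. The count of 5 in GSDMD-KO became 1 with the study's limits and without the lens libraries, 3 without a filter and with the lens covariate, 2 with only the 2 groups in the fit and with the male covariate, and 0 with the erythroid or macrophage covariate. DESeq2 called 1 gene between genotypes in retinas after hyperoxia, against 0. The cause of these changes was not tested. Leaving out 1 library at a time gave 9 to 10 and 8 to 9 called genes in lung WT and GSDMD-KO, 1 to 2 and 2 to 5 in retina, and 0 in all genotype and interaction comparisons. No target gene turned its direction while called. RLE scaling left all counts as they were. No paired analysis was possible because the replicate numbers were given in accession order and pair no samples. For the interaction a fit of only 2 groups cannot be made. Depth limited Eda2r in the retina, where the expected counts may have been scaled.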

Other observations

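The genes whose log2 CPM followed the mean of the 10 target genes most closely over the 12 lungs were Lacc1 (Pearson r = 0.994), Ogdhl (0.992), Nek6 (0.992), Txnrd1 (0.991) and Pidd1 (0.990), and 1356 genes had an r over 0.9. Closest to Cdkn1a alone were Sesn2 (0.996), Slc19a2 (0.995) and Ttc9 (0.994). These 12 samples fall into room-air and hyperoxic clusters, so that r reflects mainly the difference between them. Over the 12 retinas no gene reached 0.9 with the mean of the 9 tested genes. Closest to Cdkn1a were H2-Q7 (0.952), an MHC class I gene with near-identical copies, Fn1 (0.951), the gene of fibronectin, and Tmem165 (0.941).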
